A study of Mus musculus with 22 samples.

Results

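The EGF receptor family and its ligands were followed through the tumour stages of a mouse model of pancreatic neuroendocrine cancer. The set was a named list of 10 genes, 4 receptors (Egfr, Erbb2, Erbb3 and Erbb4) and 6 ligands (Hbegf, Areg, Ereg, Btc, Tgfa and Nrg1), taken by name, with no threshold on a measured value. A probe set that names 1 gene was listed for 9 of the 10, which are 9 of 19938 genes measured. Areg (amphiregulin) has no listed probe set and was not analysed here. Each of the 9 genes rests on 1 probe set; a second one for Erbb2 also names another gene and was left out.

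RNA from 22 samples was hybridised to Affymetrix Mouse Gene 1.0 ST arrays, 1 array a sample. There were 3 arrays each of normal, hyperplastic and angiogenic islets, 5 of islet tumours, 5 of met-like primaries and 3 of liver metastases. All 22 samples, the normal islets included, carry the genotype label RIP1-TAG2 (RT2), in which the insulin promoter drives the large T antigen of simian virus in pancreatic beta cells. Hyperplastic and angiogenic islets are the premalignant steps of this model, before and after new vessels form, and met-like primaries are primary tumours that the labels set apart from islet tumours under that name. No animal age, sex or treatment is given in the labels, and they do not say whether islets were pooled over animals or whether samples came from separate animals, so the p-values measure only the spread between these samples.

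EGF family ligands are made as membrane-anchored precursors and released by ADAM proteases, and they drive the receptors to pair and phosphorylate each other. Egfr binds Tgfa, Hbegf, Areg, Ereg and Btc, whereas Erbb3 and Erbb4 bind neuregulins such as Nrg1; Erbb2 has no ligand of its own and serves as the preferred partner, and Erbb3 has little kinase activity of its own. Signals run mainly through the RAS to ERK and PI3K to AKT routes, and ERK in turn induces phosphatases and Sprouty family proteins that damp it. In the pancreas this family is known for roles in acinar and duct cell change and in beta-cell growth.

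Values are log2 intensities as deposited, so a difference of 1 is a doubling. Array medians lay between 7.08 and 7.22, and the correlation between any pair of arrays across genes lay between 0.903 and 0.993. The mean of 8 beta-cell markers (Ins2, Iapp, Slc2a2 and others) was 11.42 to 11.48 in normal islets and 10.25 to 10.78 in islet tumours. It was 8.05 to 8.69 in met-like primaries and 8.62 to 9.30 in liver metastases. The mean of 8 acinar markers ran from 8.79 on the array Normal2007 to 12.01, although Ptf1a among them had group means of only 5.86 to 6.28. In liver metastases the acinar mean was 9.47 to 10.27. There 7 of the 8 markers were lower than in islet tumours, and 4 were lower than in met-like primaries. Hepatocyte markers averaged 10.44 to 10.86 in liver metastases against 6.54 to 7.42 in both primary tumour classes, and 2 of the 3 angiogenic islet arrays were also raised, at 8.23 and 8.90. Xist, the RNA made from the silenced X chromosome of female cells, was 10.67 to 11.41 on the 9 islet arrays and 5.33 to 6.46 on the 13 tumour and metastasis arrays, so the step from islets to tumours cannot be told apart from a difference in sex or X inactivation. These are bulk samples, in which fewer cells of a type and less RNA per cell cannot be told apart.

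Egfr, Tgfa and Erbb4 are the 3 members that were lower in met-like primaries than in islet tumours, as described further on. The 250 bases before the annotated start of each gene, from RefSeq on build GRCm38.p6, are printed 5′ to 3′ on the strand of the gene, to show what these 3 promoters share by letter. Capitals mark the GC box letters GGGCGG, read on either strand.
Egfr, chr11:16751953-16752202, plus strand: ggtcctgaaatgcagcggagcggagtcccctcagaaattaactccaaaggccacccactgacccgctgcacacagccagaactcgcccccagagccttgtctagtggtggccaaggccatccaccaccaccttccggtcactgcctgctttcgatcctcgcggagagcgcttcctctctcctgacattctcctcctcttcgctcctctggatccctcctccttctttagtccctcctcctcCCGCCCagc
Tgfa, chr6:86194972-86195221, plus strand: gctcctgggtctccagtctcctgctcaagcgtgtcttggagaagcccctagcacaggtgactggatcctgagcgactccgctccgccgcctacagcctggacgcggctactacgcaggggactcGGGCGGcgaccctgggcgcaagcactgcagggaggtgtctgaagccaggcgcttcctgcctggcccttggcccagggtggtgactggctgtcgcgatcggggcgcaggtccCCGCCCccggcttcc
Erbb4, chr1:69108060-69108309, minus strand: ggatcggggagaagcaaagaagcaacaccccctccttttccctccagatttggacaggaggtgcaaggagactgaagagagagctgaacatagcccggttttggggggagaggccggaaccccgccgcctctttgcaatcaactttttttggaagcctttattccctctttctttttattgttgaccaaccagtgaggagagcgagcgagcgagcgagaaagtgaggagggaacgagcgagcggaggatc

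The Tgfa window held the GC box letters at -126 and, on the opposite strand, at -15 from the start. The Egfr window held them once, on the opposite strand at -9, and the Erbb4 window held none. These letters occur in 32.7% of 32851 RefSeq promoter windows of this length. The GC content was 60.8% for Egfr, 69.2% for Tgfa and 54.0% for Erbb4. None of the 3 windows held TATAAA (12.4% of all windows), TGACGTCA (1.55%), CACGTG (6.02%) or TGAGTCA and its reverse TGACTCA (4.46%), each searched on both strands. Of the 10 genes listed, 6 had an entry in the promoter table.

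Across the 6 groups, 7 of the 9 genes varied in limma's moderated F test (adjusted p below 0.05), where 58.7% of all genes did. Egfr (adjusted p = 7.33e-08), Hbegf (4.97e-08), Tgfa (7.24e-07), Nrg1 (1.77e-06) and Erbb2 (0.00782) passed in the 30 alternative settings tried. Erbb4 (0.0491) and Btc (0.0463) were at the threshold and passed in 10 of 30 and 9 of 29. Erbb3 (0.773) and Ereg (0.506) did not pass in any setting.

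Egfr, the receptor of Tgfa and Hbegf, was highest in normal islets and lowest in met-like primaries. Its level was 8.41, 8.37 and 8.47 in normal islets, 8.03, 7.99 and 7.92 in hyperplastic islets, and 8.0, 7.92 and 8.27 in angiogenic islets. In islet tumours it was 7.85, 7.95, 8.18, 8.18 and 7.68. In met-like primaries it was 6.67, 6.81, 7.40, 6.79 and 6.94. In liver metastases it was 7.89, 7.78 and 7.62. Every met-like primary lay below every other sample, and every normal islet lay above every other sample; the 4 groups between them overlapped with their neighbours in the order of means (angiogenic, hyperplastic, islet tumour, liver metastasis).

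Egfr fell from 7.97 ± 0.22 (SD, n = 5) in islet tumours to 6.92 ± 0.28 (SD, n = 5) in met-like primaries, a log2 difference of -1.04 ± 0.12 (SE) or 2.06-fold, with a limma adjusted p of 6.29e-07. The first part of a sample's title (I, II or III) is shared by tumours and met-like primaries. Within these prefixes the difference was -1.18 (1 against 1), -0.96 (2 against 2) and -1.06 (2 against 2). Title numbers of the groups also lie close, as in I-9811-tumor and I-9812-MLP, or III-8024-tumor and III-8023-MLP. Whether such arrays are pairs is not given in the labels, and a paired fit was not run. From met-like primaries to liver metastases Egfr rose by 0.84 ± 0.14 (SE), 1.79-fold, to 7.76 ± 0.14 (SD, n = 3), with an adjusted p of 0.000174 by limma. All 3 metastases carry prefix I, and against the single met-like primary of that prefix they were 1.09 higher. In this comparison 8 of 9 hepatocyte markers rose (median 3.66) and 3 of 8 beta-cell markers rose, and their part in the rise of Egfr was not tested. Egfr in metastases and islet tumours differed by -0.21 ± 0.14 (adjusted p = 0.262 by limma), which the test did not separate.

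Between islet tumours and normal islets Egfr fell by 0.45 ± 0.14 (SE; limma adjusted p = 0.0155), a call that was lost without the array Normal2007 (adjusted p = 0.0565). Hyperplastic islets were already lower than normal ones by a similar amount, at -0.44 ± 0.15 with groups that did not overlap, but this missed the threshold (limma adjusted p = 0.0822). The beta-cell list moved with Egfr between islet tumours and met-like primaries: 8 of its 8 markers fell, and 6 of 8 endothelial markers fell as well. The part of these cell types in the fall of Egfr was not tested.

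**Figure D1:**
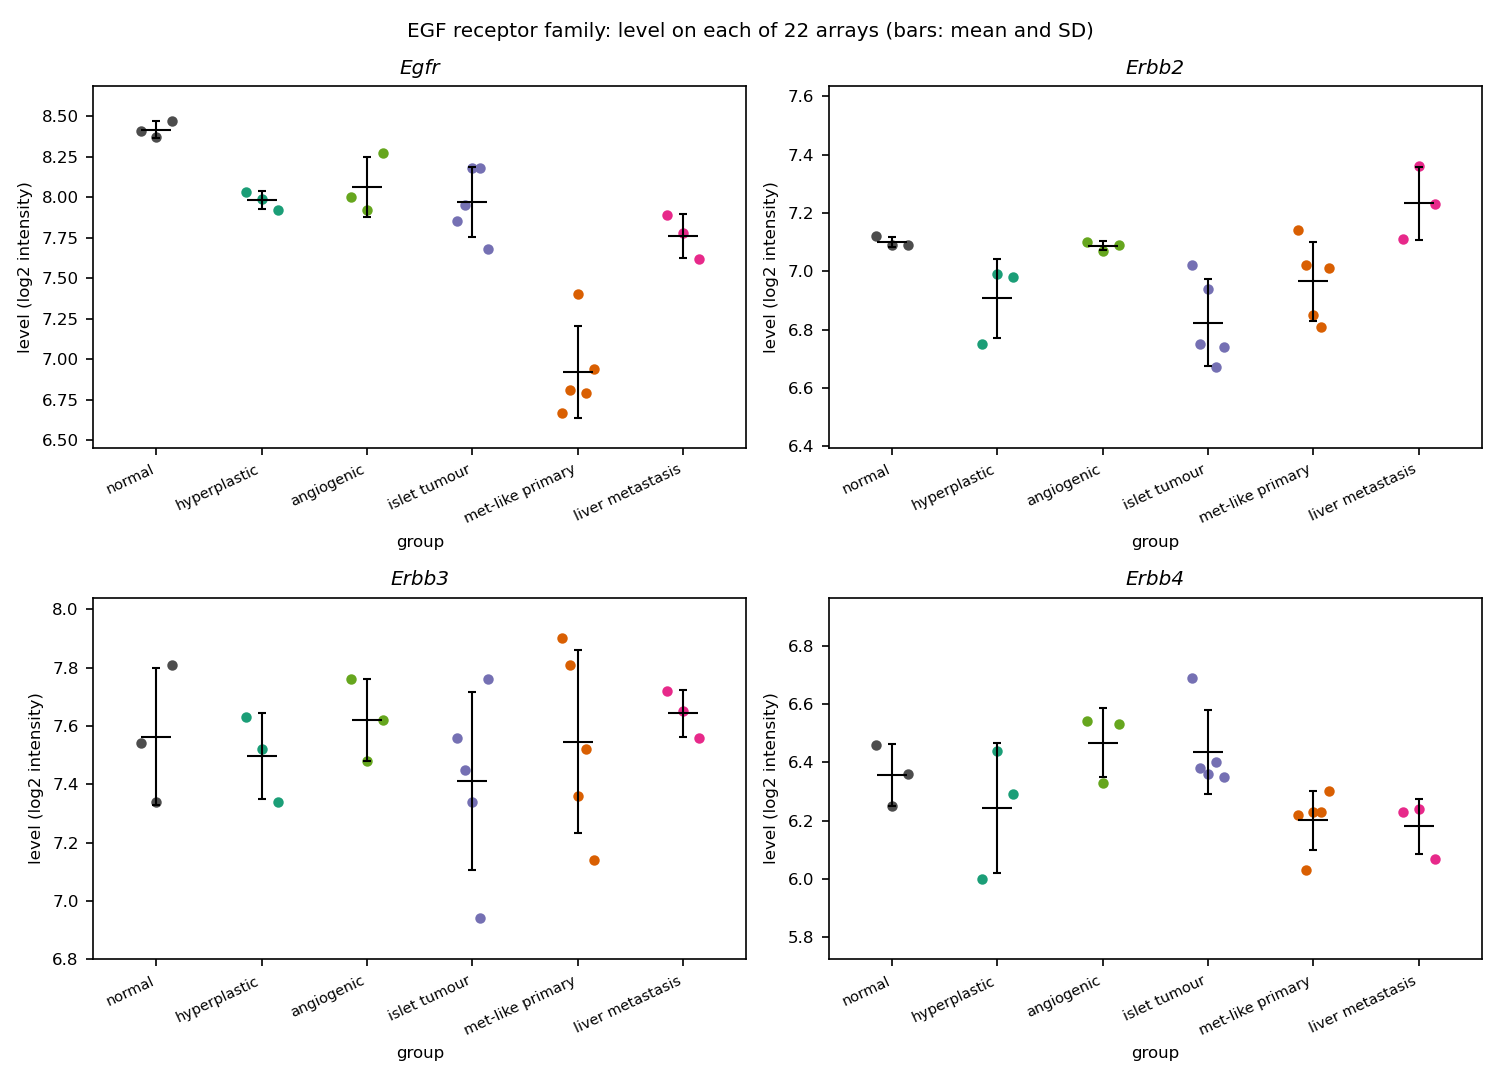
Level of each receptor gene (vertical axis, log2 intensity, a separate range for each gene) on the 22 arrays by group; points are arrays, the long horizontal line is the group mean and the bars are the SD. Egfr lies between 6.67 and 7.40 in met-like primaries and at 7.62 or above in all other groups, whereas Erbb3 overlaps between neighbouring groups.

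Erbb2, the receptor without a ligand of its own, moved little. Its level was 7.12, 7.09 and 7.09 in normal islets, 6.75, 6.99 and 6.98 in hyperplastic islets and 7.10, 7.07 and 7.09 in angiogenic islets. It was 7.02, 6.75, 6.94, 6.67 and 6.74 in islet tumours, 7.14, 7.02, 6.85, 6.81 and 7.01 in met-like primaries, and 7.11, 7.36 and 7.23 in liver metastases. Neighbouring groups in the order of means overlapped throughout, with metastases highest and islet tumours lowest. Erbb2 rose by 0.40 ± 0.09 (SE), 1.32-fold, from islet tumours to liver metastases (limma adjusted p = 0.00136), and the metastases did not overlap with the tumours. Against the 1 islet tumour of prefix I the metastases were 0.21 higher, and a fit with the title code as a block gave 0.22 (adjusted p = 0.127). The hepatocyte list rose in 9 of 9 markers in the same comparison, and its part in the Erbb2 difference was not tested. Islet tumours were lower than normal islets by -0.27 ± 0.09 (limma adjusted p = 0.0281); this call was lost in 8 of 17 alternative settings: with the block (a difference of -0.05, adjusted p = 0.804), with only the compared arrays (0.0756), and without any 1 of the 3 normal islet arrays or the islet tumours II-649, III-8017 or III-8024 (0.0567 to 0.0816).

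Erbb3, the neuregulin receptor with little kinase activity, passed no test in any comparison. Its group means ran from 7.41 ± 0.31 (SD, n = 5) in islet tumours to 7.64 ± 0.08 (SD, n = 3) in liver metastases, and single arrays from 6.94 to 7.90. The spread within islet tumours, 6.94 to 7.76, was wider than the gap between any of the group means.

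Erbb4, the other neuregulin receptor, was 6.46, 6.25 and 6.36 in normal islets, 6.0, 6.44 and 6.29 in hyperplastic islets and 6.54, 6.33 and 6.53 in angiogenic islets. It was 6.69, 6.38, 6.36, 6.40 and 6.35 in islet tumours, 6.22, 6.03, 6.23, 6.23 and 6.30 in met-like primaries, and 6.23, 6.24 and 6.07 in liver metastases. Every islet tumour lay above every met-like primary and every metastasis, by little. Erbb4 fell by 0.23 ± 0.09 (SE), 1.18-fold, from islet tumours to met-like primaries (limma adjusted p = 0.0472), and was lower by -0.26 ± 0.10 in liver metastases than in islet tumours (adjusted p = 0.0451). Both calls sat at the threshold: each was lost in 10 alternative settings (of 19 and 17), among them the islet tumours I-9811, II-649 and III-8017 left out in turn. Leaving out any 1 met-like primary other than III-8023 ended the first call, and leaving out any 1 of the 3 metastases ended the second. Without the islet tumour at 6.69 (I-9811-tumor) the differences were -0.17 (adjusted p = 0.141) and -0.20 (adjusted p = 0.114).

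Hbegf, the heparin-binding EGF-like ligand of Egfr and Erbb4, fell from normal islets to islet tumours, with lower means at each stage between, and rose again in both later classes. Its level was 8.52, 8.32 and 8.53 in normal islets, 8.20, 8.24 and 8.21 in hyperplastic islets and 8.13, 8.16 and 7.99 in angiogenic islets. It was 7.66, 7.82, 7.55, 7.59 and 7.52 in islet tumours, 8.04, 7.96, 8.05, 8.18 and 8.12 in met-like primaries, and 8.42, 8.37 and 8.51 in liver metastases. All 5 islet tumours lay below all other arrays. In the order of means, normal islets overlapped with metastases and angiogenic islets with met-like primaries, and no other neighbours overlapped.

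Hbegf fell by 0.83 ± 0.08 (SE), 1.78-fold, from normal islets to islet tumours (limma adjusted p = 5.78e-08). The step from angiogenic islets to islet tumours was -0.47 ± 0.08 (adjusted p = 0.000665 by limma). The earlier steps were smaller and not called: -0.24 ± 0.09 from normal to hyperplastic islets (adjusted p = 0.101) and -0.12 ± 0.09 from hyperplastic to angiogenic islets (adjusted p = 0.578). Hbegf is known to be induced quickly by cell stress and growth signals, and the immediate-early list (Fos, Egr1, Atf3 and others) fell in 9 of 10 genes from angiogenic islets to islet tumours. That list averaged 9.13 to 9.69 on the islet arrays and 7.08 to 7.60 on the islet tumour arrays, and its part in the Hbegf difference was not tested.

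From islet tumours to met-like primaries Hbegf rose by 0.45 ± 0.07 (SE), 1.36-fold (limma adjusted p = 2.93e-05), and within prefixes I, II and III it was 0.38, 0.32 and 0.60 higher. It rose by a further 0.36 ± 0.08, 1.29-fold, in liver metastases (adjusted p = 0.00276 by limma), or by 0.39 within prefix I. Metastases stood 0.81 ± 0.08 above islet tumours, 1.75-fold (adjusted p = 6.04e-08 by limma). The immediate-early list averaged 7.57 to 7.96 in met-like primaries and 7.76 to 7.83 in metastases, below all islet arrays. From islet tumours it rose in 2 of 10 genes and fell in 0 to met-like primaries, and rose in 4 and fell in 1 to metastases, where all 3 arrays had a higher list mean than any islet tumour; its part in the rise of Hbegf was not tested. The calls for Hbegf held in every alternative setting run.

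Tgfa, a ligand of Egfr, rose at the first step and fell in met-like primaries. Its level was 8.17, 7.91 and 8.03 in normal islets, 8.54, 8.54 and 8.43 in hyperplastic islets and 8.38, 8.54 and 8.49 in angiogenic islets. It was 8.67, 8.48, 8.61, 9.14 and 8.65 in islet tumours, 7.66, 7.87, 8.07, 7.77 and 7.76 in met-like primaries, and 7.74, 7.66 and 7.98 in liver metastases. The arrays fell into a higher set (hyperplastic, angiogenic and islet tumour, all 8.38 or above) and a lower set (normal, met-like primary and metastasis, all 8.17 or below), and the groups within each set overlapped with their neighbours.

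Tgfa rose by 0.47 ± 0.13 (SE), 1.38-fold, from normal to hyperplastic islets (limma adjusted p = 0.0303), and by 0.68 ± 0.12, 1.60-fold, from normal islets to islet tumours (adjusted p = 0.000157 by limma). With 1 array left out, the first of these calls was lost in 5 of the 6 cases (adjusted p from 0.0577 to 0.139), without Normal2006, Normal2007 or any of the 3 hyperplastic islet arrays. From islet tumours to met-like primaries Tgfa fell by 0.89 ± 0.10, 1.85-fold (limma adjusted p = 1.01e-06), and within prefixes I, II and III the difference was -1.01, -0.58 and -1.13. All 8 beta-cell markers fell in this comparison. With group means removed, Tgfa correlated over the 22 arrays at r = 0.68 with the beta-cell list mean. It gave 0.56 with the fibroblast list and 0.54 with the ductal list, so the value was not particular to beta cells. In their groups, III-8017-tumor and II-6413-MLP had the highest Tgfa level and the highest mean of each of these lists. Values of r with the lists were not computed without these arrays. For Tgfa with Egfr, leaving them out took r from 0.43 to 0.01. Egfr gave 0.14 with the beta-cell list and 0.56 with the ductal list. With group means kept, r with the beta-cell list was 0.68 for Tgfa and 0.84 for Egfr. The part of beta-cell content in the fall of Tgfa was not tested. Liver metastases were lower than islet tumours by -0.92 ± 0.12 (adjusted p = 3.26e-06 by limma) and differed from met-like primaries by -0.03 ± 0.12 (adjusted p = 0.901).

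Nrg1, the ligand of Erbb3 and Erbb4, was at a similar level in the 3 islet groups and rose in the tumour classes. Its level was 6.74, 6.77 and 6.87 in normal islets, 6.66, 6.89 and 6.73 in hyperplastic islets and 6.66, 6.86 and 6.80 in angiogenic islets. It was 7.25, 7.69, 7.05, 6.96 and 7.47 in islet tumours, 7.77, 7.91, 7.95, 7.63 and 7.55 in met-like primaries, and 7.21, 7.18 and 7.39 in liver metastases. All 13 tumour and metastasis arrays lay above all 9 islet arrays, and the islet tumours were the most scattered group.

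Nrg1 rose by 0.51 ± 0.13 (SE), 1.43-fold, from angiogenic islets to islet tumours (limma adjusted p = 0.0158), a call that was lost without AngiogenicI-93 (adjusted p = 0.112) and when only the compared arrays entered the fit (0.104). It rose by 0.48 ± 0.11, 1.39-fold, from islet tumours to met-like primaries (limma adjusted p = 0.00281), with ranges that overlapped, and within prefixes I, II and III it was 0.52, 0.56 and 0.37 higher. It fell by 0.50 ± 0.13, 1.42-fold, from met-like primaries to liver metastases (limma adjusted p = 0.0114), and within prefix I the difference was -0.51. This last call was lost in 4 of 17 settings, among them the arrays I-9820-Met (adjusted p = 0.0514) and I-9821-Met (0.0643) left out in turn. Egfr and Nrg1 took opposite directions at both steps: Egfr lower and Nrg1 higher in met-like primaries, and the reverse in metastases. The Schwann and neural marker list averaged 8.66 to 8.74 in met-like primaries, 8.17 to 8.43 in islet tumours and 8.29 to 8.43 in metastases. Of its 6 measured markers, 2 rose and 0 fell from islet tumours to met-like primaries, and 0 rose and 2 fell from there to metastases. Mean levels in islet tumours and met-like primaries were 9.0 and 10.39 for Elavl3, 9.97 and 10.8 for Ncam1, and 8.55 and 9.0 for Tubb3. They were 7.33 and 7.3 for Sox10, 6.51 and 6.37 for S100b, and 8.5 and 8.4 for Elavl4. The part of this list in the Nrg1 differences was not tested.

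Btc (betacellulin) and Ereg (epiregulin) were in the dimmest 25% of genes by mean level, so changes in them are hard to measure. Btc was 6.15, 6.15 and 6.11 in normal islets and between 5.66 and 6.04 on all other arrays, so each normal islet lay above every other sample. It was lower by -0.27 ± 0.08 (SE) in islet tumours than in normal islets (limma adjusted p = 0.0111), but not with only the compared arrays in the fit (0.0834) or with the title code as a block (0.121). Ereg stayed between 5.58 and 6.07 on the 22 arrays, with overlap between all neighbouring groups, and passed no test.

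**Figure D2:**
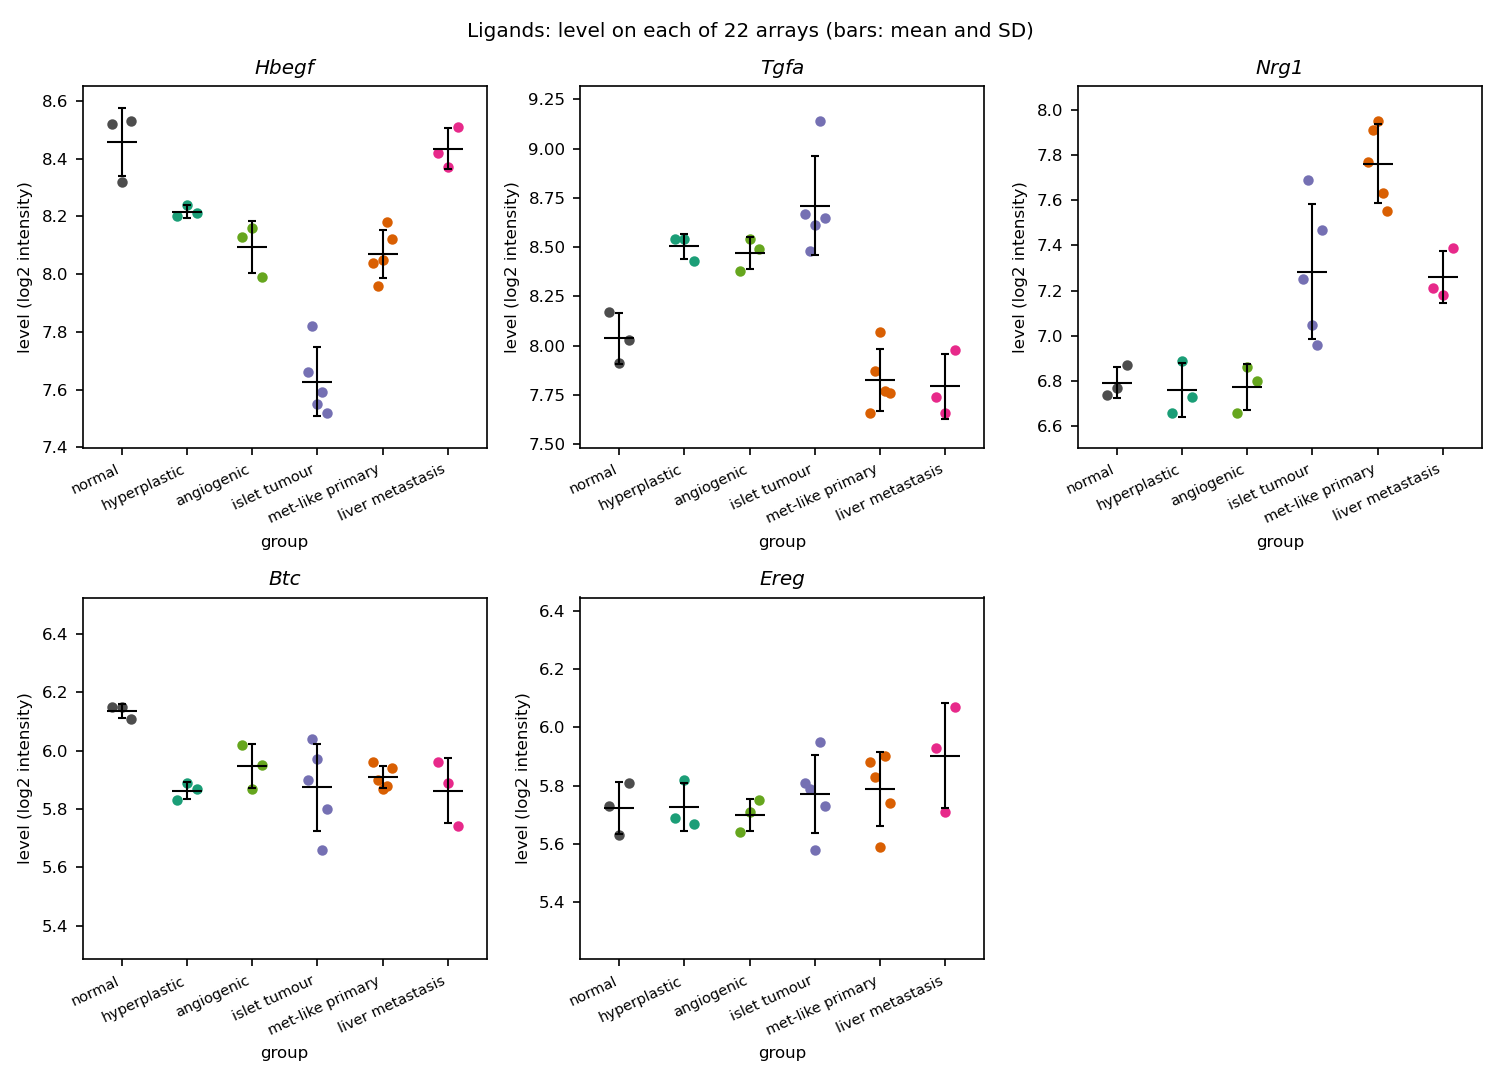
Level of each measured ligand (vertical axis, log2 intensity, a separate range for each gene) on the 22 arrays by group; points are arrays, the long horizontal line is the group mean and the bars are the SD. Hbegf is lowest in islet tumours (7.52 to 7.82), Tgfa drops from 8.48 to 9.14 in islet tumours to 7.66 to 8.07 in met-like primaries, and Nrg1 is above 6.9 on all tumour and metastasis arrays.

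The count of members called in each step is given beside the share of all genes called. From normal to hyperplastic islets 1 of 9 was called (Tgfa, higher), where 8.64% of all genes were. Samples of these groups share title codes, and with the code as a block 2 were called, Tgfa (adjusted p = 0.0426) and Btc (lower, 0.0471). The member median difference was -0.11 against -0.01 over all genes, and 5 of the 9 members did not overlap between the groups, where 28.4% of all genes did not. From hyperplastic to angiogenic islets limma called 0 of 9, with 0 also at an unadjusted p below 0.05, against 2.53% of all genes. In this step 2 of the 9 members did not overlap, where 22.8% of all genes did not, and endothelial markers (5 of 8) and fibroblast markers (7 of 8) rose.

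From angiogenic islets to islet tumours 2 of 9 members were called, Nrg1 higher and Hbegf lower, against 9.54% of all genes. From islet tumours to met-like primaries 5 of 9 were called, Hbegf and Nrg1 higher and Egfr, Erbb4 and Tgfa lower, against 26.5% of all genes. From met-like primaries to liver metastases 3 of 9 were called, Egfr and Hbegf higher and Nrg1 lower, against 15.7% of all genes. Over the longer spans, 6 of 9 were called between normal islets and islet tumours (Tgfa and Nrg1 higher, Egfr, Erbb2, Hbegf and Btc lower) against 29.0% of all genes. Between islet tumours and liver metastases 4 of 9 were called (Erbb2 and Hbegf higher, Erbb4 and Tgfa lower) against 36.6% of all genes. The member medians in these last 5 comparisons lay between -0.15 and 0.10, with members on both sides of 0, and those of all genes between -0.03 and 0.05. The members that did not overlap between groups numbered 3, 4, 3, 6 and 4 in the order just given, where 14.9%, 17.0%, 23.2%, 27.9% and 37.3% of all genes did not. Comparisons that have a group in common are not independent of each other.

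**Figure D3:**
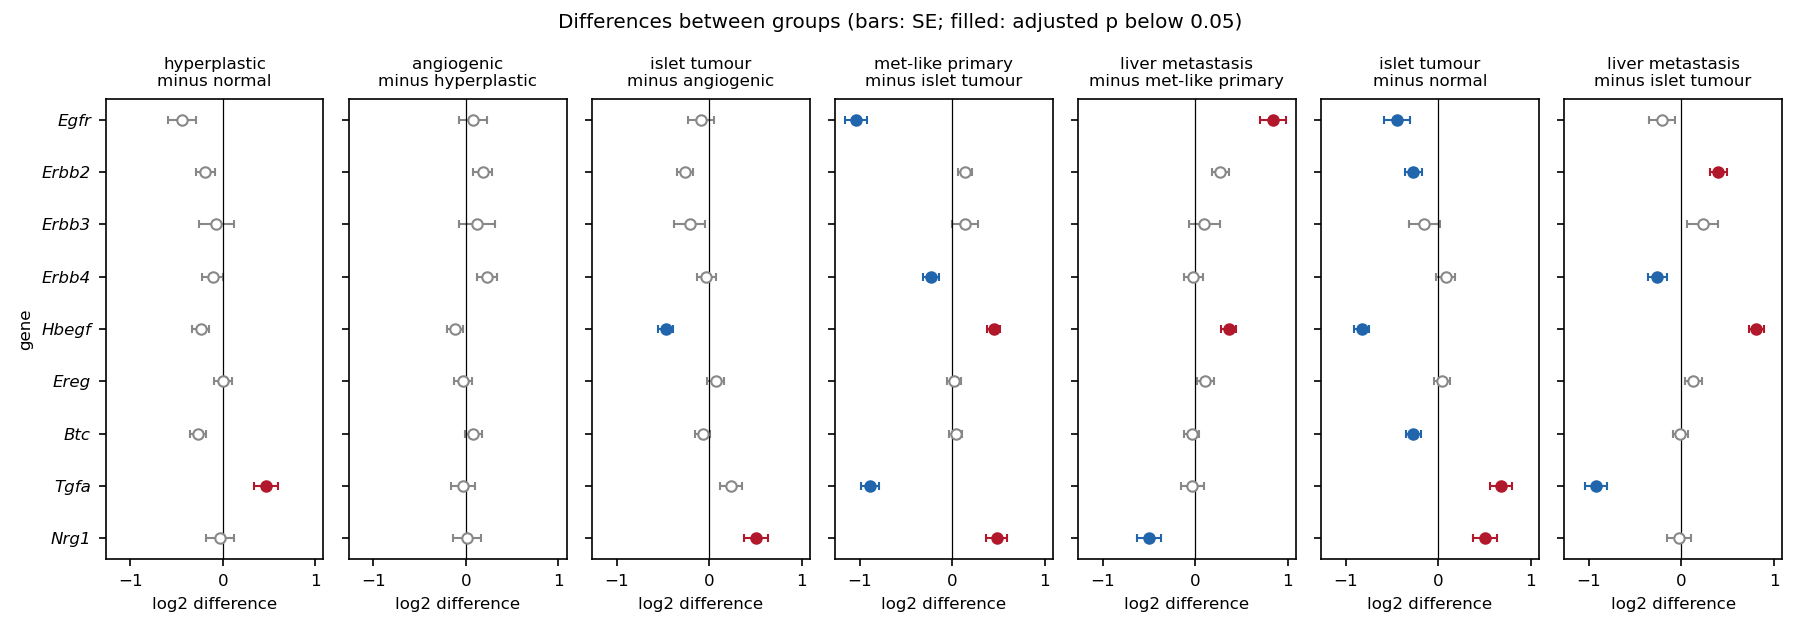
Difference between groups for each of the 9 genes (horizontal axis, log2 difference, 0 marked by a line) in the 7 comparisons; points are limma estimates, bars their SE, filled red points are higher and filled blue points lower at an adjusted p below 0.05, and open points were not called. The step from islet tumours to met-like primaries has 5 filled points, with Egfr at -1.04 and Tgfa at -0.89 farthest from 0, and the step from hyperplastic to angiogenic islets has 0.

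Among the 5 other EGF family ligands (Egf, Epgn, Nrg2, Nrg3 and Nrg4), Nrg3, a neuregulin that binds Erbb4, stood out in met-like primaries. Its level there was 8.41, 8.85, 8.19, 8.42 and 8.26, against 5.88, 6.54, 6.05, 6.08 and 5.92 in islet tumours and 5.71 to 6.05 in the islets. Nrg3 rose by 2.33 ± 0.12 (SE), 5.04-fold (limma adjusted p = 3.62e-12). The table gives no measure of background, so whether Nrg3 was above background in islets and islet tumours was not tested, and the fold change can understate the difference if it was not. In liver metastases it was 7.90, 7.93 and 8.06, lower than in met-like primaries by -0.46 ± 0.13 (adjusted p = 0.0209 by limma) and far above the islet tumours. Nrg2, another neuregulin, rose by 0.24 ± 0.08 at the same step (limma adjusted p = 0.026).

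Egf, the founding ligand of the family, moved the other way. It was 8.47, 8.33 and 8.46 in normal islets, 7.67, 7.92 and 7.70 in hyperplastic islets and 7.33 to 7.63 in islet tumours. Egf fell by 0.66 ± 0.09 (SE), 1.58-fold, from normal to hyperplastic islets (limma adjusted p = 4.94e-05) and by a total of 0.97 ± 0.08 to islet tumours (2.08e-08). It was lower again by -0.24 ± 0.07 in met-like primaries than in islet tumours (limma adjusted p = 0.0153). In met-like primaries, 2 of the 5 ligands on this list were thus higher and 1 lower than in islet tumours, where 26.5% of all genes were called. The list median was 0.04 against -0.02 over all genes. Without III-8016-MLP 1 was higher and 1 lower.

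Of 8 genes for ligand shedding, 3 rose and 1 fell from islet tumours to met-like primaries, where 26.5% of all genes were called. The list median was 0.20 against -0.02 over all genes. Adam12, a protease known to release Hbegf, was 6.66 to 7.11 in islet tumours and 7.72 to 8.13 in met-like primaries, without overlap. It rose by 1.05 ± 0.09 (SE), 2.08-fold (limma adjusted p = 1.22e-08), and fell by 0.40 ± 0.10 in metastases (0.0119). Adam10, the main protease for Egf and Btc precursors, rose by 0.40 ± 0.10 in met-like primaries (limma adjusted p = 0.00451), and Adam19, which can cut neuregulins, by 0.37 ± 0.09 (0.00304). Rhbdf2, a partner that carries Adam17 to the cell surface, fell by 0.28 ± 0.06 (limma adjusted p = 0.00202). Adam17 itself was not called at this step. It averaged 8.7 in islet tumours, 8.71 in met-like primaries and 8.63 in metastases. From hyperplastic to angiogenic islets 2 of the 8 rose, where 2.53% of all genes were called. Adam12 rose by 0.66 ± 0.12 (limma adjusted p = 0.00184) and Rhbdf1 by 0.47 ± 0.11 (0.024), in the step where 7 of 8 fibroblast markers rose. The part of fibroblasts in that rise was not tested.

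More of the genes that restrain the receptors rose than fell in the later classes. Of 11, 6 rose and 1 fell from islet tumours to met-like primaries, where 26.5% of all genes were called. The list median was 0.30 against -0.02 over all genes. Cbl, a ubiquitin ligase that sends activated Egfr for breakdown, rose by 0.47 ± 0.08 (SE; limma adjusted p = 0.000181), the phosphatase gene Ptpn12 by 0.30 ± 0.07 (0.00201). Lrig2 rose by 0.27 ± 0.07 (limma adjusted p = 0.00576) and Lrig1, which lowers receptor levels at the membrane, by 0.38 ± 0.11 (0.0152). Without the met-like primary III-8016-MLP the count was 4 higher and 1 lower. Errfi1, a direct inhibitor of the Egfr kinase that is itself induced by ERK, was lowest on average in islet tumours. It was 9.69 to 10.02 in the islets, 8.72, 8.78, 9.20, 9.65 and 8.84 in islet tumours, and 10.24, 10.36 and 10.18 in liver metastases. Errfi1 was 9.12, 8.70, 9.22, 10.34 and 9.48 in met-like primaries, where the array at 10.34 (III-8016-MLP) overlapped with the metastases. It fell by 0.83 ± 0.24 from normal islets to islet tumours (limma adjusted p = 0.0122) and rose by 0.89 ± 0.24 from met-like primaries to metastases (0.0152). Between islet tumours and metastases, 7 of the 11 genes rose and 0 fell by limma, with a median of 0.42, where 36.6% of all genes were called. Socs4, a suppressor of cytokine and EGF receptor signalling, had the smallest adjusted p of these (0.78 ± 0.14, limma adjusted p = 0.000151). In the same comparison 9 of 9 hepatocyte markers rose, with a median of 4.11, and their part in the list was not tested.

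The adaptors and relay proteins downstream of the receptors did not move one way. Of 15 measured among the 20 listed, 2 rose and 5 fell from islet tumours to met-like primaries, with a median of 0. In this comparison 26.5% of all genes were called. Stat3, a transcription factor that receptor kinases can activate, rose by 0.72 ± 0.10 (SE; limma adjusted p = 1.43e-05), and the docking protein gene Gab1 by 0.48 ± 0.10 (0.000818). Braf, a kinase of the ERK route, fell by 0.46 ± 0.08 (limma adjusted p = 0.000126) and Plcg1, a phospholipase that binds active receptors, by 0.40 ± 0.07 (0.000184). Shc1, an adaptor that links the receptors to RAS, was lower by -0.66 ± 0.12 in islet tumours than in normal islets (limma adjusted p = 0.00021). Pik3r1, a regulatory subunit of PI3K, rose by 0.72 ± 0.11 from met-like primaries to metastases (limma adjusted p = 0.000105), where hepatocyte markers rose in 8 of 9.

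Among genes of the ERK feedback list, most of them known to be induced when ERK is active, more rose than fell in the later classes. Of 12, 6 rose and 1 fell from islet tumours to met-like primaries, with a median of 0.58 against -0.02 over all genes. Here 26.5% of all genes were called (2455 higher, 2824 lower). From islet tumours to liver metastases 9 rose and 1 fell, with a median of 0.87 against -0.03 over all genes. In that comparison 36.6% of all genes were called (3451 higher, 3845 lower). There 9 of 9 hepatocyte markers rose as well, and their part in the list was not tested. Dusp4, a phosphatase of nuclear ERK, was 7.74, 7.07, 6.96, 8.30 and 6.36 in islet tumours, 9.26, 8.34, 8.57, 9.60 and 8.73 in met-like primaries, and 9.97, 10.11 and 9.93 in metastases. These groups did not overlap. Dusp4 rose by 1.61 ± 0.27 (SE), 3.06-fold, in met-like primaries (limma adjusted p = 7.99e-05) and stood 2.71 ± 0.31, 6.56-fold, above islet tumours in metastases (5.76e-07).

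Dusp6, the phosphatase of cytoplasmic ERK, rose by 1.09 ± 0.17 (SE), 2.13-fold, from islet tumours to met-like primaries (limma adjusted p = 4.64e-05), and Spred1, an inhibitor of RAS signalling, by 0.70 ± 0.12 (0.000159). Dusp5, another ERK phosphatase, fell by 0.63 ± 0.09 (limma adjusted p = 2.36e-05), so the list did not move as 1 block. The met-like primary III-8016-MLP had the highest list mean, 8.71, where the other 4 lay between 7.71 and 8.05. Without it the count was the same, 6 higher and 1 lower, and the median was 0.34. Egfr on that array was 6.79, inside the range of its group. In the metastases Phlda1 (0.86 ± 0.21, limma adjusted p = 0.00622) and Ier3 (0.71 ± 0.23, 0.0392) rose from the mean level in met-like primaries. The groups overlapped through III-8016-MLP. It had Phlda1 at 8.84, against 8.78 to 9.03 in metastases, and Ier3 at 8.1, against 7.72 to 7.98. Hepatocyte markers rose in 8 of 9 in this comparison, and their part in these rises was not tested.

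**Figure D4:**
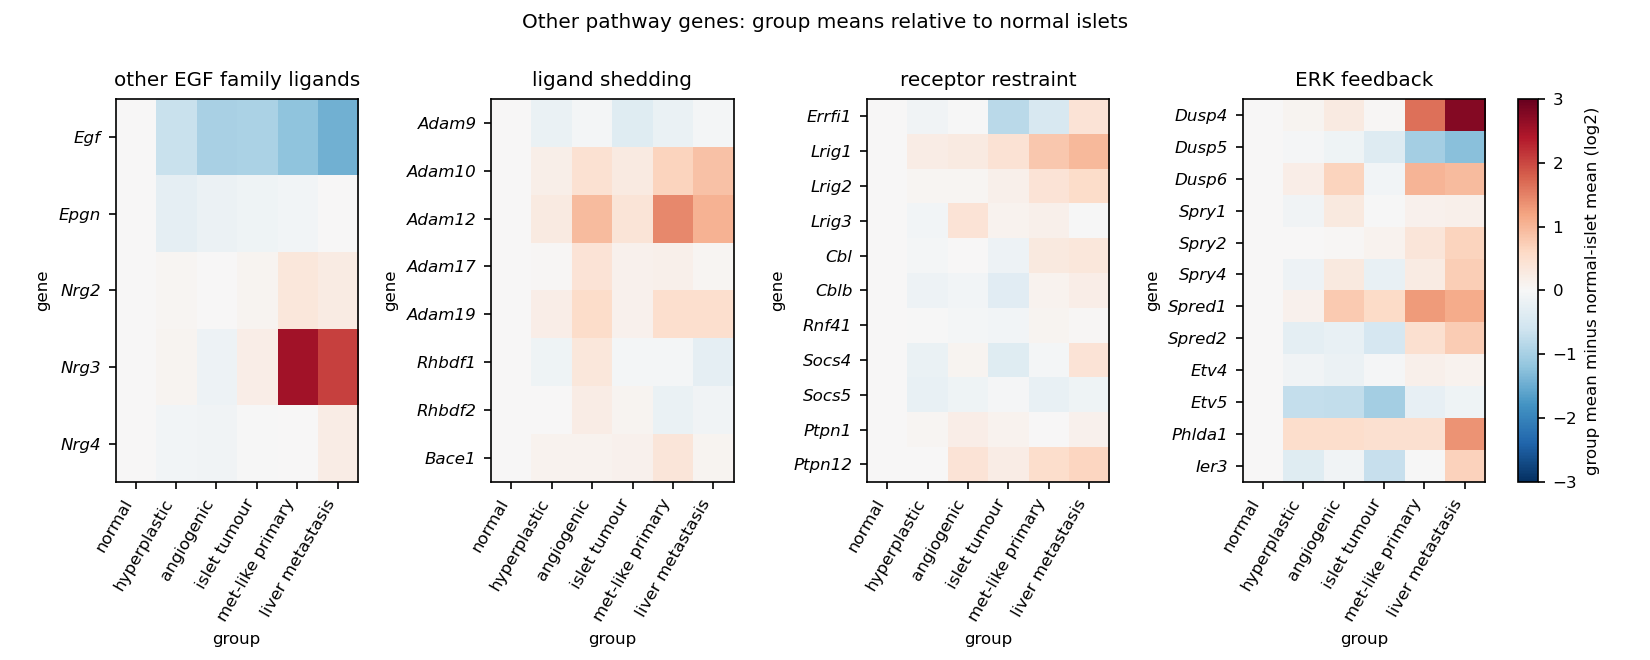
Group means of the other pathway genes minus their mean in normal islets (colour, log2, red higher and blue lower), with genes as lines and the 6 groups as columns in 4 lists. Nrg3 and Dusp4 are the darkest red in met-like primaries and metastases, and Egf is blue in every group after normal islets.

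For each member that varied in the F test, the 3 genes with the highest Pearson correlation over the 22 arrays were listed as a description. Genes with clone or locus names (Gm, LOC, BC, Rik and the like), olfactory receptors and microRNAs were skipped. The arrays share their group structure, so such values are high for many genes. The nearest to Egfr were Rbm47 (r = 0.937), Pawr (0.931) and Tlcd4 (0.925). The nearest to Tgfa were Zfp185 (0.944), Ippk (0.942) and Mpp3 (0.935), and to Hbegf Tob1 (0.906), Hmgcs1 (0.869) and Mat2b (0.852). Nrg1 was nearest to Sync (0.929), Rbfox3 (0.927), a neuronal RNA-binding protein, and Trim66 (0.926). Erbb2 was nearest to Rab17 (0.818), Mup5 (0.742) and Proc (0.735), of which Proc is made mainly in liver. Erbb4 was nearest to Tll1 (0.795), Plcd3 (0.762) and She (0.760), and Btc to Map10 (0.781), Lad1 (0.780) and Lrriq3 (0.780).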

How the data were processed

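Total RNA was hybridised to 22 arrays, and the deposited table of log2 intensities was used as it stands; per the labels, the authors processed the scanner files with aroma.affymetrix, with settings not given in the sources used here. Of 35511 probe sets, 23410 were in the platform gene table, 21789 of them with 1 symbol; the probe set with the highest mean stood for a gene (19938 genes). Probe-level background is not in the table, so the number of arrays limits the precision.

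Differences came from limma 3.58.1 (R 4.3.3), with 1 mean per group over all 22 arrays, moderated variance and two-sided tests. The p-values were adjusted (Benjamini-Hochberg) over all genes of a comparison and called below 0.05. The script was checked on simulated data. The members and lists were chosen with earlier results of these data known. All members were named, and from each list, within a comparison, genes among the 4 called with the smallest adjusted p.

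Title codes are shared by the islet groups. Deviations from the group mean correlated at 0.197 to 0.448 for normal and hyperplastic islets of the same code (others -0.368 to -0.058). For hyperplastic and angiogenic islets they correlated at 0.353 to 0.479 (others -0.393 to -0.062). For normal and angiogenic islets the values were 0.057 to 0.144 (others -0.09 to 0.039). Same-code values thus lay above the others in all 3 pairs of groups, by the least for normal and angiogenic islets. Codes were therefore read as a possible pairing of the islet groups. The main fit did not use them, and the fit with the code as a block is an alternative. From hyperplastic to angiogenic islets 0 members were called in each of the 9 alternative settings.

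Alternatives were the code as a block, the compared arrays only, quantile normalization, median centring, no dim genes, mean of probe sets, array weights, trended variance, the acinar mean as covariate, and leaving out each array. Since each of the 9 members rests on 1 probe set, the mean of probe sets left their levels unchanged and could act on them only through other genes.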

Additional observations from a re-analysis of the deposited data

Results flagged for a closer look

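In the 5-array groups, the highest or lowest array was set against Dixon's critical value for each of the 9 genes, 18 tests in all, of which chance alone passes about 1 in 20. In 2 of them 1 array stood apart from the rest of its group. Erbb4 was 6.69 on the islet tumour array I-9811-tumor, where the other 4 islet tumours lay between 6.35 and 6.40. Tgfa was 9.14 on the islet tumour array III-8017-tumor, where the other 4 lay between 8.48 and 8.67.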

How the results depend on the processing

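Over the 9 genes and 7 comparisons, no called difference changed sign in any alternative. In the named settings 524 values stayed on the same side of the threshold, 14 passed newly and 15 no longer passed. With 1 array left out the numbers were 455, 3 and 28. Differences called in neither fit were counted as staying whatever their sign, and some changed sign. For Erbb3 from normal to hyperplastic islets the alternatives ranged from -0.18 to 0.06. All calls for Hbegf, the Egfr and Tgfa calls between islet tumours and met-like primaries, and the Egfr call between these and metastases held in every setting run. From normal to hyperplastic islets, the count of members called (1) became 2 with the replicate block, 2 with quantile normalization, 4 with median centring, 4 with array weights and 2 with only the compared arrays, and it ranged from 0 to 1 with 1 array left out. From angiogenic islets to islet tumours the count (2) became 1 with only the compared arrays and ranged from 1 to 3 with 1 array left out. With the replicate block the Nrg1 fall from met-like primaries to metastases had an adjusted p of 0.057. The code links islets to tumours through prefix I alone, so block values across that step rest on few arrays. Median centring moved the median of all genes by at most 0.05 in a comparison. The filter on dim genes removed Ereg and Btc. The arrays give no measure of signal over background, and 3 arrays in 4 of the groups limit what can be detected.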
